A study of Mus musculus with 12 samples.

Results

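RNA from sciatic nerve was used to follow 31 genes of the lysosome and of the vacuolar ATPase (V-ATPase), out of 43432 genes counted. The members were taken by symbol from a named list, which was chosen with earlier results of these data known. It held 8 subunits of the V1 sector of the V-ATPase, 5 of its V0 sector and 2 accessory proteins. From the lysosome it held 3 membrane proteins, 8 hydrolases, 2 transcription factors and 3 ion channels. All 31 matched 1 gene each, all were counted in every library and all 31 passed the filter on low counts, with between 153 counts (*Tpcn2*) and 27541 counts (*Ctsb*) in a library. The nerves came from 12 mice aged 1 month, 1 library each, in 3 groups of 4 that held 3 males and 1 female: untreated *Mtmr2* wt/wt animals (WT control), untreated *Mtmr2* -/- animals (*Mtmr2* KO), and *Mtmr2* -/- animals given niacin (niacin-treated *Mtmr2* KO). *Mtmr2* encodes a phosphoinositide phosphatase whose loss causes the demyelinating neuropathy CMT4B1, and the null allele is not limited to a cell type. Niacin was injected intraperitoneally at 120 mg/kg from P10 until P21 and then given by gavage as a slow-release form until P30. The labels give no treatment for the WT control and *Mtmr2* KO mice, which are called untreated here, whereas the text of the study describes the *Mtmr2* KO mice as vehicle treated. No WT group given niacin was analysed, so treatment was measured in *Mtmr2* KO nerve only. Libraries are named by the numbers in their labels, 4497 to 4500 for WT control, 4501 to 4504 for *Mtmr2* KO and 4505 to 4508 for niacin-treated *Mtmr2* KO.

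The lysosome degrades proteins, lipids and sugars delivered by endocytosis, phagocytosis and autophagy, and its hydrolases work in acid. The V-ATPase makes that acid: its V1 sector splits ATP in the cytosol and turns a rotor, and its V0 sector carries protons through the membrane. TFEB and TFE3 are transcription factors that bind CLEAR elements in the promoters of many lysosomal genes. MTMR2 removes phosphates from phosphoinositides of endosomes and lysosomes, among them the lipid that opens the channel encoded by *Mcoln1* and the channels encoded by *Tpcn1* and *Tpcn2*. In nerve, Schwann cells and macrophages rely on lysosomes to clear myelin debris.

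The libraries held 20763951 to 33191106 counts. *Mtmr2* itself was 161, 130.2, 128 and 137 CPM (counts divided by library size and scaled) in the WT control, 71.6, 84.7, 143 and 69.5 in the *Mtmr2* KO and 66.8, 68.5, 68.3 and 73.5 in the niacin-treated libraries. The library labelled *Mtmr2* KO 4503 lay inside the WT control range. By edgeR no member was called in any comparison, with 4503 or without it. Without it, members with an unadjusted p under 0.05 went from 3 to 5 in *Mtmr2* KO against WT control. They went from 5 to 1 in niacin-treated against untreated *Mtmr2* KO and from 11 to 14 in niacin-treated *Mtmr2* KO against WT control. In niacin-treated against untreated *Mtmr2* KO the median member log2 fold change went from 0.032 to -0.030. The share of all genes called there went from 1.43% to 0.0746%. *Mtmr2* KO 4502 stood apart from its group: for the members its median distance from the WT control mean was 0.62 on the log2 scale, against 0.068, 0.18 and 0.13 in 4501, 4503 and 4504. Skeletal muscle markers, all 8 of 8 counted, summed to 3173 and 3165 CPM in niacin-treated 4506 and 4507 and to between 12.7 and 101 CPM elsewhere. The summed markers of myelinating Schwann cells were counted for all 8 of 8 genes and summed to 60938 to 116432 CPM, above every other list of cell type markers. In whole nerve, fewer cells of a type and less RNA per cell cannot be told apart.

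The promoters were searched for the CLEAR element. It is described in promoters of many lysosomal genes, so that a share above that of all windows is no result of these data. The CLEAR element has the core TCACGTGA, an E-box (CACGTG) with a flanking base on each side, and both are their own reverse complements, so that a match counts for both strands. RefSeq promoter windows on GRCm38.p6, from 250 bases before to 50 after the start, were at hand for 25 of the 31 members and not for *Atp6v1b2*, *Atp6v1c1*, *Atp6v1g1*, *Atp6v1h*, *Ctsb* and *Tpcn1*. The 25 members had 31 windows, since 4 of them had more than 1. TCACGTGA was found in 6 of the 31 windows (19.4%), each of a different member, and in 0.974% of all 32851 windows, and CACGTG, which lies within it, in 11 of the 31 (35.5%), again 1 a member, and in 7.15% of all. Whole windows are given for *Atp6v1a*, the catalytic V1 subunit (chr16:44139210-44139509, minus strand), and for *Mcoln1* (chr8:3500269-3500568, plus strand), because both hold the octamer and their transcripts lay on opposite sides of WT control in the niacin-treated nerves. Capitals mark TCACGTGA.
Atp6v1a: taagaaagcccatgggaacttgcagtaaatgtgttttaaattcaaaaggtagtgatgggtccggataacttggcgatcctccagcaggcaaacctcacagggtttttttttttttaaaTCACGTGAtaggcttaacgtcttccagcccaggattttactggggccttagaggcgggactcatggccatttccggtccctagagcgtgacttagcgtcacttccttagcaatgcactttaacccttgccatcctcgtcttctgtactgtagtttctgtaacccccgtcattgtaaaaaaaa
Mcoln1: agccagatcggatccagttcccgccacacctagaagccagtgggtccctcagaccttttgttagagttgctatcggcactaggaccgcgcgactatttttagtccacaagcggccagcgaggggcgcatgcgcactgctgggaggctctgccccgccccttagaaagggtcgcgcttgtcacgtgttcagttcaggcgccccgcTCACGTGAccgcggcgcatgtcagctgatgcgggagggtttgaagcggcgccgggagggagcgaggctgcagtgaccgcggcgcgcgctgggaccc

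The octamer with 20 bases on each side is shown for the other 4 members that hold it, to compare its surroundings across roles: *Atp6v0d1* (chr8:105566041-105566088, minus strand), *Atp6v0e* (chr17:26676378-26676425, plus strand), *Ctsa* (chr2:164833740-164833787, plus strand) and *Ctsd* (chr7:142387899-142387946, minus strand). *Ctsa* holds the octamer in 2 copies.
Atp6v0d1: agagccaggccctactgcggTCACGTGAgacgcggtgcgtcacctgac
Atp6v0e: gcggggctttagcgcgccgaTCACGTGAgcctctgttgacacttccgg
Ctsa: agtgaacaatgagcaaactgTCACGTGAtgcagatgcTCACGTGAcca
Ctsd: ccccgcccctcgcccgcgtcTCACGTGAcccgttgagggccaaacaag

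The octamer began 132 bases before the start in *Atp6v1a*, 99 in *Ctsd*, 46 in *Mcoln1*, 13 in *Ctsa* and 4 in *Atp6v0d1*, and 2 bases after it in *Atp6v0e*. The core alone, without the full octamer, was found in *Atp6v0b*, *Lamp1*, *Ctsl*, *Gaa* and *Glb1*, with 4 copies in *Lamp1*. In niacin-treated *Mtmr2* KO against WT control, 6 of the 11 members with CACGTG and 9 of the 14 without had a log2 fold change above 0, with medians of 0.078 and 0.12. In niacin-treated against untreated *Mtmr2* KO it was 2 of 11 and 8 of 14, with medians of -0.092 and 0.039, beside 45.9% of all genes. In *Mtmr2* KO against WT control it was 7 of 11 and 7 of 14, with medians of 0.018 and 0.0059, beside 54% of all genes. These differences were not tested.

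Levels were compared between genes per length, as CPM per kb of merged exons. In WT control nerve *Lamp1*, a major glycoprotein of the lysosomal membrane, was highest at 279 ± 18.8 (SD, n = 4), beside the aspartic protease *Ctsd* at 249 ± 4.83 and ahead of the cysteine protease *Ctsb* at 140.1 ± 6.54. The highest V-ATPase subunit per length was *Atp6v1g1*, of the peripheral stalk, at 104 ± 11.6 CPM per kb. The nucleotide-binding subunits *Atp6v1a* and *Atp6v1b2* were at 15.4 ± 0.48 and 16.9 ± 0.54 CPM per kb, and the regulatory subunit *Atp6v1h* was the lowest of its sector at 3.81 ± 0.23.

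The lowest 6 members were of several roles. *Tfeb* was at 5.76 ± 0.17, *Tfe3* at 5.26 ± 0.24 and *Mcoln1* at 4.61 ± 0.55 CPM per kb, and their WT control libraries did not overlap. The beta-galactosidase *Glb1*, at 5.73 ± 0.39, stood between *Tfeb* and *Tfe3*, and its libraries overlapped with those of both. *Atp6v1h* stood below *Mcoln1*. *Tpcn1*, at 13.3 ± 1.22 CPM per kb, was well above its paralogue *Tpcn2*, the lowest member at 1.83 ± 0.21, and the libraries of the pair did not overlap in any group. Per length the order holds for merged exons of all annotated transcripts, and lengths of the longest transcript raised the median level over all 12 libraries from 23.1 to 32.8 CPM per kb.

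**Figure D1:**
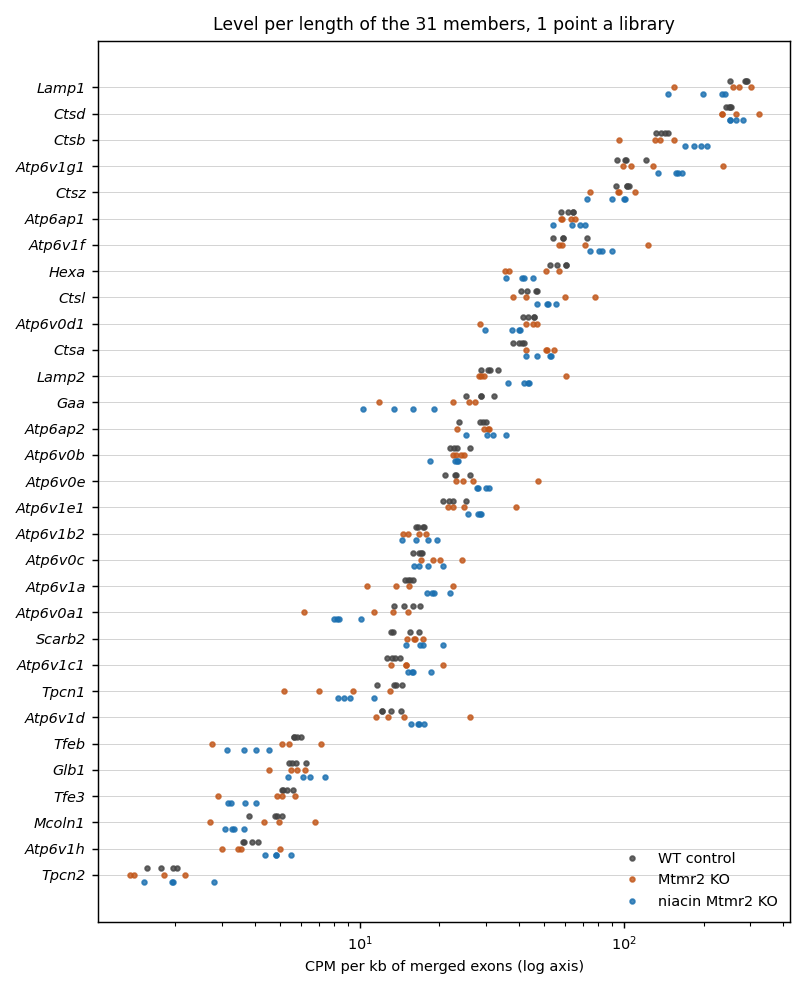
Level of each of the 31 members in CPM per kb of merged exons (log axis), 1 point a library, with WT control in grey, *Mtmr2* KO in orange and niacin-treated *Mtmr2* KO in blue. *Lamp1* and *Ctsd* head the order in WT control nerve and *Tpcn2* ends it, and the *Mtmr2* KO points are the most scattered.

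Loss of *Mtmr2* alone was read from the untreated groups. No member was called in *Mtmr2* KO against WT control by edgeR at an adjusted p under 0.05, beside 0.267% of all 17257 genes tested, and 3 of 31 had an unadjusted p under 0.05, beside 17.2% of all genes. DESeq2 over the 12 libraries called 0 members here, beside 3.47% of all genes. The log2 fold change was above 0 in 16 of 31, beside 54% of all genes, and its median was 0.0092, beside 0.033. The groups did not overlap for 1 member that was higher and for none that was lower, beside 3.85% and 5.46% of all genes.

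That member was *Ctsa*, a serine carboxypeptidase that also protects other lysosomal enzymes (chr2:164832873-164841032 on GRCm38, the build of all gene coordinates here). CPM of *Ctsa* was 194, 179.6, 197 and 188 in the WT control, 201, 242, 257 and 239 in the *Mtmr2* KO and 249, 247, 222 and 201 in the niacin-treated libraries, so that every *Mtmr2* KO library was above every WT control library. This gave a log2 fold change of 0.31 ± 0.12 (SE, n = 4 against 4), with an edgeR adjusted p of 0.226 and an exact two-sided permutation p of 0.0286, the smallest that 4 against 4 can give. Reads of *Neurl2* and *Pltp*, which overlap *Ctsa*, could be shared with it. The same limit holds for *Hexa* (overlapped by *Tmem202*), *Lamp1* (*Grtp1*), *Atp6v1b2* (*Slc18a1*), *Atp6v1e1* (*Slc25a18*), *Ctsz* (*Nelfcd*) and *Glb1* (*Tmppe*). It also holds for *Ctsd* and *Tpcn2*, which overlap coding genes without a symbol here.

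*Tpcn1* (chr5:120534153-120588673), an endolysosomal cation channel, had the smallest p of the members in this comparison. CPM of *Tpcn1* was 116, 114, 122 and 97.9 in the WT control, 109.6, 43.6, 59.4 and 79.5 in the *Mtmr2* KO and 73.8, 77.6, 95.4 and 69.8 in the niacin-treated libraries. Of the 4 *Mtmr2* KO libraries 3 lay below all WT control libraries and 4501 did not, with a log2 fold change of -0.62 ± 0.22 and an edgeR adjusted p of 0.186. Without 4501 *Tpcn1* was called, with a log2 fold change of -0.89 and an edgeR adjusted p of 0.0411, beside 2.6% of all genes. That fit leaves out the very library that did not lie below WT control. The *Mtmr2* KO libraries it keeps include the one whose *Mtmr2* lay inside the WT control range. They also include the one that stood apart from its group. *Tpcn1* was the only member called in this comparison when any 1 of the 12 libraries was left out.

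*Hexa* (chr9:59539540-59565109), the alpha subunit of beta-hexosaminidase, was the third. CPM of *Hexa* was 120.2, 105, 120.1 and 111 in the WT control, 101, 70.98, 73.3 and 114 in the *Mtmr2* KO and 89.9, 81.8, 83.5 and 71.4 in the niacin-treated libraries. In *Mtmr2* KO 4502 and 4503 were low and 4504 was inside the WT control range, with a log2 fold change of -0.34 ± 0.15 and an edgeR adjusted p of 0.273.

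The spread among *Mtmr2* KO libraries was the widest of the 3 groups. The median SD of log2 CPM over the members was 0.34 in *Mtmr2* KO, 0.096 in WT control and 0.16 in niacin-treated *Mtmr2* KO, and it was 0.15 in *Mtmr2* KO without 4502. Library 4502 was above all WT control libraries for 15 members and below all of them for 13. It was above all WT control libraries in 7 of 8 V1 subunits, as in *Atp6v1g1*, with 269 CPM beside 106 to 137 in WT control, and low in *Atp6v1b2* (80.6 CPM beside 86.7 to 92.4), *Gaa*, *Tpcn1* and *Tfeb*. Across all genes tested, log2 CPM in 4502 relative to the WT control mean fell by 0.40 for each 10 percentage points of transcript GC content, beside slopes of -0.052 to 0.030 in the other *Mtmr2* KO libraries. Macrophage markers, all 12 of 12 counted, summed to 1630 CPM in 4502, 681 to 964 CPM in the other *Mtmr2* KO libraries and 729 to 877 CPM in WT control. The part of GC content and of macrophages in the values of 4502 was not tested.

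**Figure D2:**
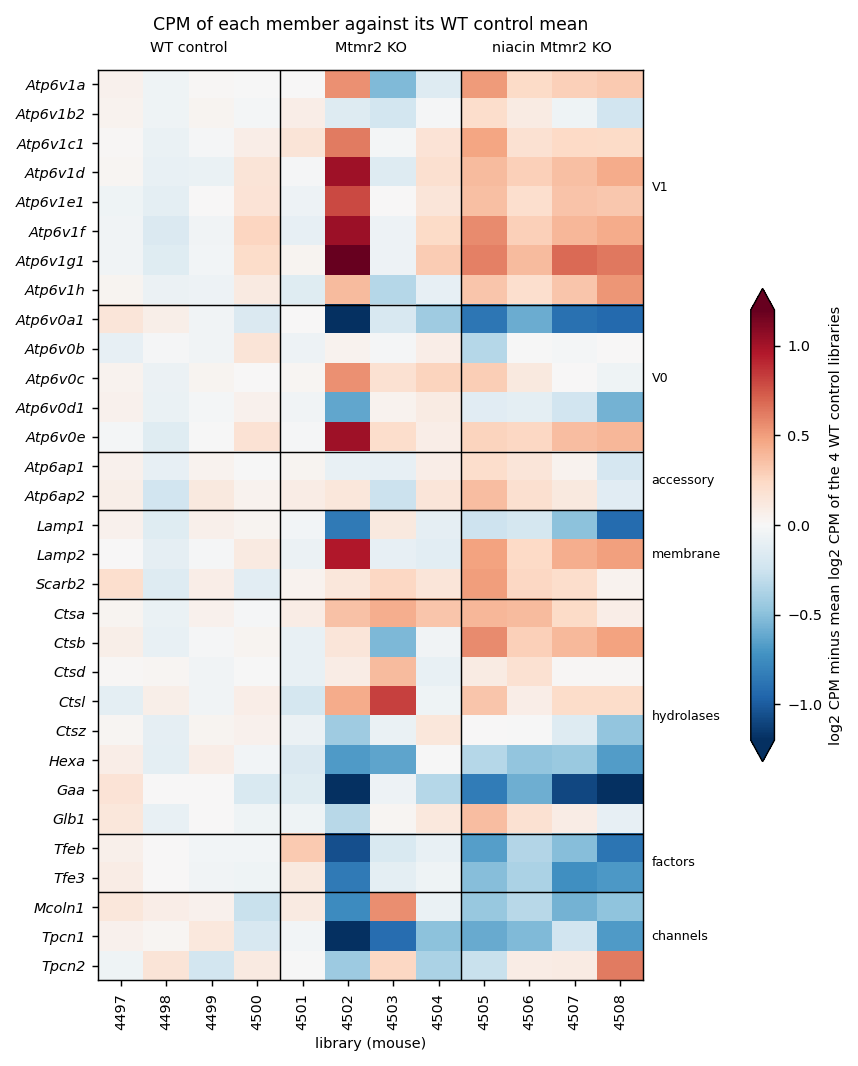
Log2 CPM of each member minus its mean log2 CPM in the 4 WT control libraries, with genes in rows ordered by role and libraries in columns; colours saturate at the ends of the scale. Among *Mtmr2* KO libraries 4502 departs most, high for most V1 subunits and low for *Atp6v0a1*, *Gaa* and *Tfeb*, and the 4 niacin-treated libraries show the V1 rows mostly above and the *Atp6v0a1*, *Gaa*, *Tfeb* and *Tfe3* rows below WT control.

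Niacin treatment was compared with no treatment within *Mtmr2* KO. No member was called by edgeR over the 12 libraries, beside 1.43% of all genes, and 5 of 31 had an unadjusted p under 0.05, beside 20.1% of all genes. Of 31 members 16 had a log2 fold change above 0, beside 45.9% of all genes, with a median of 0.032 beside -0.035. The groups did not overlap for 1 member that was higher and none that was lower, beside 3.6% and 3.4% of all genes.

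The member that separated the groups was *Ctsb* (chr14:63122462-63145923), a cysteine protease. CPM of *Ctsb* was 890.4, 798, 837 and 865 in the WT control, 794, 937, 582 and 825 in the *Mtmr2* KO and 1252, 1031, 1110.1 and 1181 in the niacin-treated libraries. All 4 niacin-treated libraries were above all 8 others, with a mean of 1144 ± 94.9 CPM against 784 ± 149 in *Mtmr2* KO (SD, n = 4). Treatment against no treatment gave a log2 fold change of 0.54 ± 0.16, with an edgeR adjusted p of 0.0953 and an exact two-sided permutation p of 0.0286. DESeq2 over the same 12 libraries called it and no other member, beside 5.88% of all genes, but with the 2 groups alone neither DESeq2 nor edgeR did (edgeR adjusted p 0.29). *Fdft1* overlaps *Ctsb*, so that reads could be shared.

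The next smallest p was that of *Atp6v1h*, the regulatory V1 subunit (chr1:5070018-5162529; *Rgs20* overlaps it). CPM of *Atp6v1h* was 37.9, 35.3, 35.5 and 39.97 in the WT control, 33.6, 48.4, 29.3 and 34.7 in the *Mtmr2* KO and 46.8, 42.7, 46.8 and 53.6 in the niacin-treated libraries. The niacin-treated range met only that of 4502, with a log2 fold change of 0.38 ± 0.15 and an edgeR adjusted p of 0.174.

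The third was *Gaa*, the acid alpha-glucosidase that degrades glycogen (chr11:119267887-119285454). CPM of *Gaa* was 154, 138, 137 and 121 in the WT control, 123, 56.6, 131 and 108 in the *Mtmr2* KO and 76.3, 91.4, 64.3 and 49.2 in the niacin-treated libraries. The niacin-treated libraries were below 3 of the *Mtmr2* KO libraries and around 4502, with a log2 fold change of -0.57 ± 0.24 and an edgeR adjusted p of 0.198.

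Markers of other cells moved in this comparison too. Mast cell markers summed to 73.1 to 91.01 CPM in niacin-treated and 16.8 to 44.5 CPM in untreated *Mtmr2* KO libraries, and 4 of 4 were called by edgeR. Adipocyte markers had log2 fold changes above 0 for 7 of 7, with a median of 0.72 and 1 called, and sums of 2167 to 4417 CPM against 754 to 4564 CPM. Of the muscle markers 5 of 8 were called, with 4506 and 4507 high as given above. Macrophage markers summed to 870 to 1266 CPM against 681 to 1630 CPM with none called, and those of myelinating Schwann cells to 60938 to 100641 CPM against 82586 to 116432 CPM with none called. The part of these cells in the values of the members was not tested.

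Without 4502, which widened the *Mtmr2* KO group, 6 members were called higher and 5 lower, beside 9.85% and 13.7% of all 17716 genes then tested. The members called higher were *Atp6v1a*, *Atp6v1d*, *Atp6v1g1*, *Atp6v1h*, *Lamp2* and *Ctsb*, 4 of them V1 subunits. The members called lower were *Atp6v0a1*, *Gaa*, *Tfeb*, *Tfe3* and *Mcoln1*. The edgeR adjusted p of *Tfe3* was then 0.00629, of *Atp6v1h* 0.00699 and of *Ctsb* 0.0125. Among the *Mtmr2* KO libraries 4502 alone had a steep GC slope, as given above. Log2 CPM relative to the WT control mean fell with GC content in the niacin-treated libraries, by 0.14 to 0.31 for each 10 percentage points. With 4502 kept and offsets for GC content and length, no member was called over 12 libraries or 2 groups (2.71% and 0% of all genes). The part of GC content in the calls without 4502 was not tested.

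The widest differences among the members lay between niacin-treated *Mtmr2* KO and WT control, which differ in both genotype and treatment, so that the parts of the pair cannot be told apart here. The groups did not overlap for 20 of 31 members, 11 higher and 9 lower, beside 14.9% higher and 16.6% lower of all genes. The log2 fold change was above 0 in 20 of 31, beside 51.5% of all genes, and its median was 0.14, beside 0.019. By edgeR over the 12 libraries no member was called, nor was any other gene (0% of all), and DESeq2 over these libraries called 3 members lower (*Atp6v0a1*, *Gaa* and *Tfe3*), beside 7.38% of all genes called either way, while 11 of 31 had an unadjusted p under 0.05, beside 24.7% of all genes. In the edgeR fit of these 2 groups alone, in which the spread of the *Mtmr2* KO group plays no part, 11 members were called higher and 8 lower, beside 16.3% and 17.6% of all 16501 genes tested. DESeq2 with the same 2 groups called 11 higher and 8 lower, beside 15.2% and 18.6% of all genes. Values below are from the fit over 12 libraries with its adjusted p, followed by the adjusted p of the 2 groups alone.

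In the V1 sector 7 of 8 subunits had higher values in every niacin-treated than in every WT control library, beside 14.9% of all genes. None of the 8 was called over the 12 libraries, 7 were called higher in the fit of 2 groups (16.3% of all genes) and 3 in that fit with offsets for GC content and length (8.36%). The median log2 fold change of the 8 was 0.35 over the 12 libraries, beside 0.019 for all genes. The largest was that of *Atp6v1g1* (chr4:63544772-63550750), with 114, 106, 115 and 137 CPM in WT control and 179, 153, 188 and 182 CPM in niacin-treated libraries, a log2 fold change of 0.57 ± 0.23 and edgeR adjusted p of 0.166 and 0.00379. Its *Mtmr2* KO values were 121, 269, 113 and 146 CPM, of which 4502 was above every niacin-treated library.

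The catalytic subunit *Atp6v1a* was at 96.3, 89.3, 93.4 and 92.3 CPM in WT control, 92.98, 136, 64.3 and 83.2 CPM in *Mtmr2* KO and 132, 109, 113 and 115 CPM in niacin-treated libraries. Its log2 fold change against WT control was 0.34 ± 0.18, with edgeR adjusted p of 0.246 and 0.0108. The other nucleotide-binding subunit, *Atp6v1b2*, did not follow it, with 76.6 to 104 CPM in niacin-treated against 86.7 to 92.4 CPM in WT control and a log2 fold change of 0.014 ± 0.12 whose sign turned under other settings. The rotor subunits *Atp6v1d* and *Atp6v1f*, the stalk subunits *Atp6v1c1* and *Atp6v1e1*, and *Atp6v1h* had log2 fold changes between 0.29 (*Atp6v1c1*) and 0.42 (*Atp6v1f*), with edgeR adjusted p over 2 groups between 0.00802 and 0.0246.

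The V0 sector was divided. *Atp6v0a1* (chr11:101009452-101063719), the large membrane subunit that lines the proton path, was lower in every niacin-treated library. CPM of *Atp6v0a1* was 110.4, 104, 96.6 and 88.6 in the WT control, 99.9, 40.4, 87.5 and 74.2 in the *Mtmr2* KO and 54.7, 66.1, 53.5 and 52.2 in the niacin-treated libraries. Its log2 fold change was -0.82 ± 0.21, with edgeR adjusted p of 0.0877 and 0.00158. *Atp6v0e* was higher in every niacin-treated library, at 103 to 114 CPM against 77.8 to 97.4 CPM, with a log2 fold change of 0.32 ± 0.19 and edgeR adjusted p of 0.301 and 0.0193. *Atp6v0d1*, which joins the proteolipid ring to the rotor, was lower without overlap, at 53.2 to 72.6 CPM against 74.6 to 81.8 CPM, but passed neither fit, with adjusted p of 0.309 and 0.0719.

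The proteolipid subunits *Atp6v0b* and *Atp6v0c* overlapped with WT control, with log2 fold changes of -0.089 ± 0.11 and 0.097 ± 0.13. Processed pseudogenes of *Atp6v0c* could take or give reads, so that its values are uncertain. The accessory proteins *Atp6ap1* and *Atp6ap2*, the latter also known as the prorenin receptor, had log2 fold changes of 0.055 ± 0.12 and 0.14 ± 0.14 and overlapped with WT control.

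Among the membrane proteins the pair *Lamp1* and *Lamp2* lay on opposite sides of WT control. *Lamp1* was at 772, 673, 780.3 and 765 CPM in WT control and 627, 644, 531 and 393 CPM in niacin-treated libraries, with a log2 fold change of -0.45 ± 0.21 and edgeR adjusted p of 0.206 and 0.0351. *Lamp2*, which also serves chaperone-mediated autophagy, was at 297, 275, 292 and 319 CPM and 412, 349, 401 and 416 CPM, with a log2 fold change of 0.41 ± 0.22 and edgeR adjusted p of 0.247 and 0.00886. *Scarb2*, the receptor that carries beta-glucocerebrosidase to the lysosome, overlapped between the groups, with a log2 fold change of 0.25 ± 0.13.

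The 8 hydrolases were divided as well, with a median log2 fold change of 0.11. *Gaa* had the lowest value of all members, -0.96 ± 0.24, with 70.3 ± 17.9 CPM against 137 ± 13.4 CPM in WT control (SD, n = 4) and edgeR adjusted p of 0.0833 and 0.00269. *Hexa* was also lower without overlap, with a log2 fold change of -0.48 ± 0.15 and edgeR adjusted p of 0.115 and 0.00401. *Ctsb* and *Ctsa* were higher in all niacin-treated libraries than in all WT control libraries. Their log2 fold changes were 0.43 ± 0.16 and 0.28 ± 0.12, with edgeR adjusted p over 2 groups of 0.00956 and 0.0365.

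The remaining hydrolases overlapped between the groups. *Ctsd* was at 590.2 to 665 CPM against 570.4 to 597 CPM, and *Ctsl* at 303 to 360.1 against 264 to 303 CPM. *Ctsz* had a log2 fold change of -0.15 ± 0.14 and the beta-galactosidase *Glb1* of 0.14 ± 0.13. *Ctsd* and *Ctsl* were highest in the library labelled *Mtmr2* KO 4503, at 762 and 506 CPM.

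Both transcription factors, *Tfeb* (chr17:47737030-47792419) and *Tfe3* (chrX:7762560-7775202), had lower values in every niacin-treated library than in every WT control library. CPM of *Tfeb* was 34.00, 32.9, 31.9 and 31.9 in the WT control, 40.5, 15.7, 28.8 and 30.6 in the *Mtmr2* KO and 20.6, 25.6, 22.9 and 17.8 in the niacin-treated libraries. Against WT control the log2 fold change of *Tfeb* was -0.59 ± 0.22, with edgeR adjusted p of 0.142 and 0.00305. In *Mtmr2* KO against WT control it was -0.18 ± 0.21, a value whose sign turned without 4502, and in niacin-treated against untreated *Mtmr2* KO it was -0.41 ± 0.22.

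The group means of the paralogue *Tfe3* had the same order. Its *Mtmr2* KO mean was 42.9 CPM with 4502 and 48.2 CPM without it, beside 48.7 CPM in WT control. CPM of *Tfe3* was 51.8, 48.9, 47.3 and 46.9 in the WT control, 52.7, 26.99, 44.9 and 47.05 in the *Mtmr2* KO and 34.2, 37.4, 29.3 and 30.1 in the niacin-treated libraries. The niacin-treated libraries were below all WT control libraries, with a log2 fold change of -0.57 ± 0.17 and edgeR adjusted p of 0.104 and 0.00247. Against untreated *Mtmr2* KO it was -0.39 ± 0.17, and 4502 alone of the *Mtmr2* KO libraries was as low as the treated ones. In *Mtmr2* KO against WT control it was -0.18 ± 0.17. These are transcript levels, and the activity of both proteins depends on their entry into the nucleus, which was not measured.

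Of the channels, *Mcoln1* (chr8:3500457-3515232), which releases calcium from lysosomes, was lower in all niacin-treated libraries than in all WT control libraries. CPM of *Mcoln1* was 38.2, 36.6, 35.97 and 28.7 in the WT control, 37.3, 20.5, 51.1 and 32.8 in the *Mtmr2* KO and 25.2, 27.6, 23.4 and 24.8 in the niacin-treated libraries. The log2 fold change against WT control was -0.47 ± 0.21, with edgeR adjusted p of 0.194 and 0.00619. Against untreated *Mtmr2* KO it was -0.49 ± 0.21, and *Mtmr2* KO against WT control gave 0.024 ± 0.21, where 4502 was low and 4503 high.

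*Tpcn1*, whose libraries are given above, was lower in niacin-treated nerve than in WT control without overlap, with a log2 fold change of -0.51 ± 0.22 and edgeR adjusted p of 0.187 and 0.00651. Against untreated *Mtmr2* KO its log2 fold change was 0.12 ± 0.22. *Tpcn2* (chr7:145186524-145284011) overlapped in every comparison. CPM of *Tpcn2* was 9.27, 10.7, 8.24 and 10.4 in the WT control, 9.55, 7.08, 11.4 and 7.36 in the *Mtmr2* KO and 7.98, 10.2, 10.3 and 14.8 in the niacin-treated libraries. Its log2 fold changes were -0.12 ± 0.20 in *Mtmr2* KO against WT control, 0.29 ± 0.20 in niacin-treated against untreated *Mtmr2* KO and 0.17 ± 0.20 in niacin-treated *Mtmr2* KO against WT control.

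**Figure D3:**
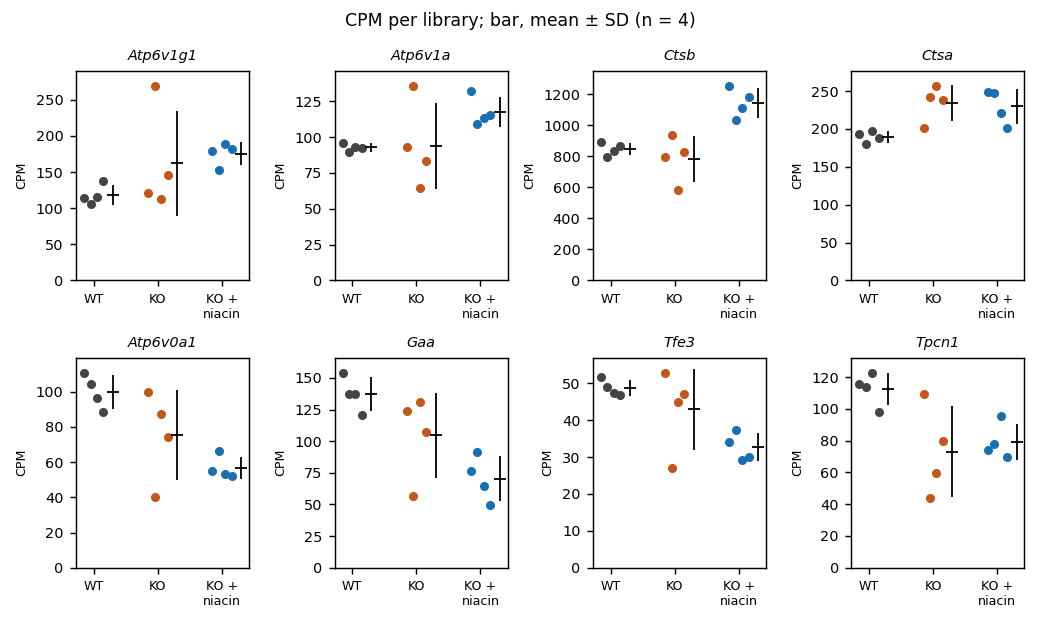
CPM per library of 8 members in WT control (grey), *Mtmr2* KO (orange) and niacin-treated *Mtmr2* KO (blue), with the mean ± SD of 4 libraries beside each group. The niacin-treated points of *Atp6v1g1*, *Atp6v1a*, *Ctsb* and *Ctsa* lie above all WT control points and those of *Atp6v0a1*, *Gaa*, *Tfe3* and *Tpcn1* below.

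**Figure D4:**
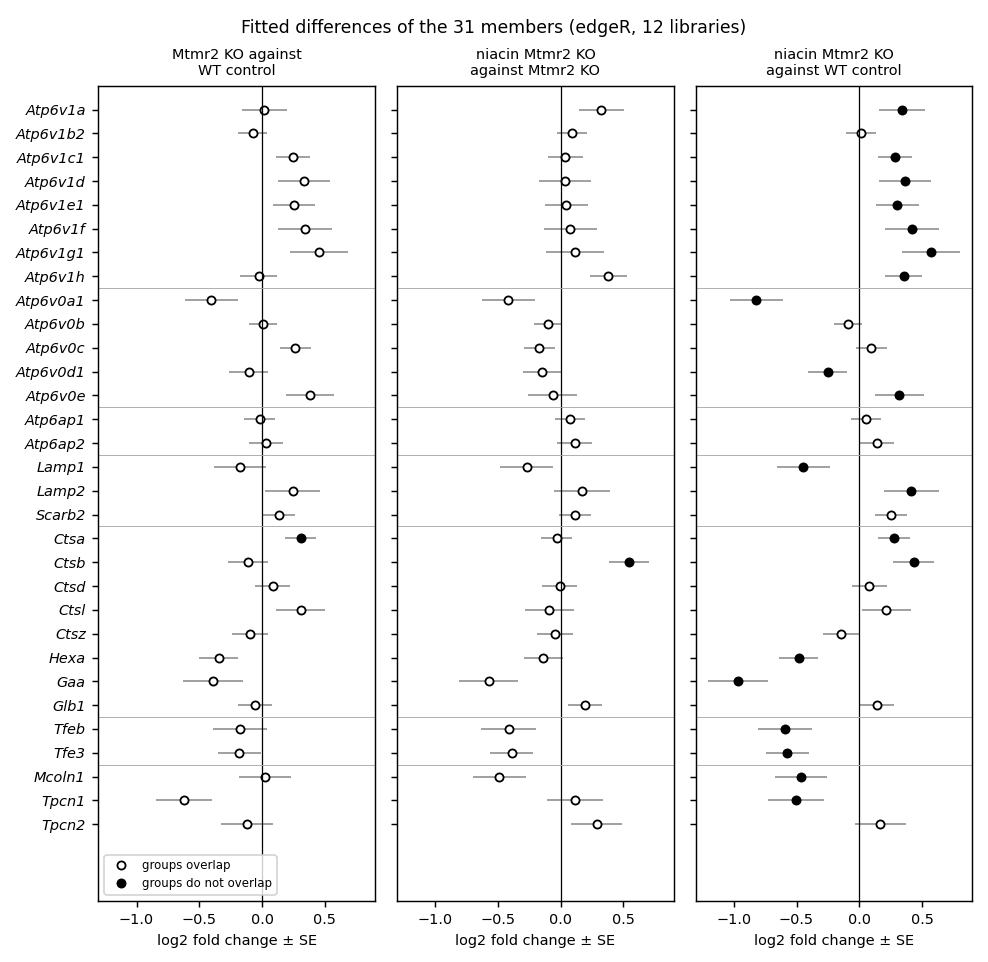
Log2 fold change ± SE of each member in the 3 comparisons from edgeR over 12 libraries; filled points mark members whose groups do not overlap. Filled points number 1 in each of the comparisons with untreated *Mtmr2* KO and 20 in niacin-treated *Mtmr2* KO against WT control.

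The differences between niacin-treated and WT control nerve moved with the GC content of the transcripts. Across the 31 members, the log2 fold change and the GC content of the longest transcript had a Spearman rho of -0.62, beside -0.40 across the 17142 genes tested whose GC content was known; these are correlations across genes of the same libraries. For transcript length rho was 0.11 among the members and -0.27 among all genes. The 10 members lowest in GC content (37.6% to 47.0%) had a median log2 fold change of 0.30 with 9 above 0, and the 10 highest (53.4% to 63.2%) a median of -0.20 with 3 above 0. Log2 CPM relative to the WT control mean fell by 0.14 to 0.31 for each 10 percentage points of GC content in the niacin-treated libraries and had slopes of -0.030 to 0.028 in the WT control libraries.

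Some of the members were set beside genes of like GC content. *Atp6v0a1*, at 47% GC, had -0.82 where genes of 45% to 50% had a median of 0.077 and quartiles of -0.17 and 0.32. *Tfeb*, at 63.2% the member highest in GC, had -0.59 where genes of 60% to 65% had a median of -0.40 and quartiles of -0.63 and -0.094, so that it lay inside them. *Atp6v1a*, at 44.6% GC, had 0.34 where genes of 40% to 45% had quartiles of -0.021 and 0.39. Of the V1 subunits *Atp6v1a*, *Atp6v1b2*, *Atp6v1c1*, *Atp6v1d* and *Atp6v1h* lay inside the quartiles of their bins. *Atp6v1e1*, *Atp6v1f* and *Atp6v1g1* lay above them. *Lamp2* lay inside, at 0.41 where genes of 35% to 40% had quartiles of 0.084 and 0.47. With offsets for GC content and length in the fit of 2 groups, 5 members were called higher and 5 lower, beside 8.36% and 7.74% of all 16402 genes tested. Those higher were *Atp6v1a*, *Atp6v1e1*, *Atp6v1g1*, *Ctsa* and *Ctsb*, and those lower *Atp6v0a1*, *Hexa*, *Gaa*, *Tfe3* and *Mcoln1*.

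With these offsets the number of V1 subunits called fell from 7 to 3; the 8 had log2 fold changes above 0, with a median of 0.24. *Atp6v1g1* had 0.27 in place of 0.58 without offsets, below *Atp6v1e1* at 0.35. *Lamp2* had 0.17 in place of 0.42 and was no longer called by edgeR (adjusted p 0.209). *Ctsb* had 0.55 (adjusted p 0.0117), *Ctsa* 0.51 (adjusted p 0.01) and *Atp6v0a1* -0.81 (adjusted p 0.00596) by edgeR. *Gaa* had -0.57 (adjusted p 0.0241) and *Tfe3* -0.33 (adjusted p 0.0199). *Tfeb* had -0.20 (adjusted p 0.124) and *Tpcn1* -0.14 (adjusted p 0.395), and neither was called.

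**Figure D5:**
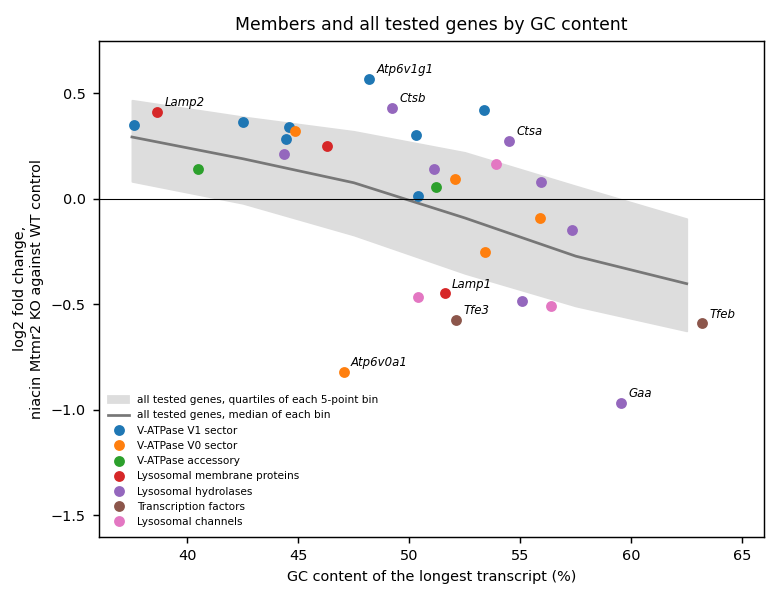
Log2 fold change of niacin-treated *Mtmr2* KO against WT control over GC content of the longest transcript (%), with the members coloured by role and all genes tested as the median (line) and quartiles (band) of bins 5 percentage points wide. The band falls from left to right, and among the members outside it *Atp6v0a1* and *Gaa* lie below, *Ctsb* and *Ctsa* above.

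No gene of the 11 lists of cell type markers was called between these groups by edgeR over the 12 libraries. Of the summed markers, those of endothelial cells and of neurons did not overlap between the groups. Macrophage markers summed to 870 to 1266 CPM in niacin-treated libraries and 729 to 877 CPM in WT control; over 12 of 12 markers the median difference was 0.47 on the log2 scale. Markers of myelinating Schwann cells, 8 of 8, summed to 60938 to 100641 CPM against 88466 to 112375 CPM, and those of endothelial cells, 4 of 4, to 197 to 292 CPM against 361 to 392 CPM. Neuron markers, 5 of 5 counted, summed to 26.5 to 34.4 CPM against 16.3 to 19.2 CPM. The part of cell makeup in the values of the members was not tested. Muscle markers were high in 4506 and 4507 only. *Ctsb* was at 1031 and 1110.1 CPM in 4506 and 4507 and at 1252 and 1181 CPM in 4505 and 4508. Macrophage markers summed to 870 and 911 CPM in 4506 and 4507 and to 1266 and 1247 CPM in 4505 and 4508. In *Mtmr2* KO 4501, 4502, 4503 and 4504 they summed to 681, 1630, 964 and 892 CPM, with *Ctsb* at 794, 937, 582 and 825 CPM. The part of muscle and of macrophages in the values of *Ctsb* was not tested. Leaving out 4502, 7 members were called higher and 8 lower in niacin-treated *Mtmr2* KO against WT control by edgeR over 11 libraries, beside 8.9% and 12.7% of all genes.

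The rest of the pathway was read from 118 further genes in 7 lists, of which 114 were tested. In *Mtmr2* KO against WT control none of them was called higher and 1 lower, in niacin-treated against untreated *Mtmr2* KO 1 was called higher and none lower, and in niacin-treated *Mtmr2* KO against WT control none was called, beside 0.267%, 1.43% and 0% of all genes called either way. That gene was *Acp5*, a tartrate-resistant acid phosphatase of macrophages and osteoclasts, among 39 further hydrolases and cofactors. CPM of *Acp5* was 66.8, 61.1, 56.8 and 59.3 in the WT control, 25.7, 22.1, 8.85 and 14.96 in the *Mtmr2* KO and 29.4, 47.2, 48.02 and 45.1 in the niacin-treated libraries. It fell by 1.77 ± 0.27 on the log2 scale in *Mtmr2* KO (edgeR adjusted p 0.0364) and rose by 1.25 ± 0.26 with niacin (adjusted p 0.0425). The groups did not overlap in either comparison. Both calls were lost in the fit of 2 groups, with adjusted p of 0.0915 and 0.176, and when some single libraries were left out, with adjusted p up to 0.105 for the first (without WT control 4497) and 0.153 for the second (without niacin-treated 4507). *Acp5* was lowest in *Mtmr2* KO 4503, whose *Mtmr2* lay inside the WT control range. Without 4503 the rise with niacin was 1.02 and was not called (edgeR adjusted p 0.0728), while the fall in *Mtmr2* KO was still called.

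No gene of the other 6 lists was called by edgeR over the 12 libraries, and the gene with the smallest p of each is given. *Ctns*, the cystine exporter, had it among 22 tested membrane proteins, at 53.9 to 64.1 CPM in WT control, 77.2 to 101 CPM in *Mtmr2* KO and 59.96 to 66.6 CPM in niacin-treated libraries. Its *Mtmr2* KO libraries were above all others, with log2 fold changes of 0.47 ± 0.11 against WT control (adjusted p 0.0875) and -0.41 ± 0.11 with niacin (adjusted p 0.0862). Of 15 autophagy genes 3 had a log2 fold change above 0 with niacin against untreated *Mtmr2* KO, beside 45.9% of all genes, with a median of -0.34 beside -0.035. Such a count is given for this list and this comparison only, and the part of GC content in it was not tested. The autophagy gene with the smallest p was *Vps18*, a subunit of the tethering complex that fuses vesicles with lysosomes. It was at 30.3 to 36.2 CPM in WT control and 15.7 to 23.3 CPM in niacin-treated nerve. Niacin-treated *Mtmr2* KO against WT control gave a log2 fold change of -0.87 ± 0.22 (edgeR adjusted p 0.0847).

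The assembly factor *Vma21* was at 83.8 to 104 CPM in niacin-treated and 56.8 to 74.2 CPM in WT control libraries, a log2 fold change of 0.50 ± 0.19 (adjusted p 0.144). *Lamtor3*, of the scaffold that holds mTORC1 on lysosomes, had 0.42 ± 0.14 (adjusted p 0.127). Among other V-ATPase isoforms *Atp6v1g2*, the neuronal isoform of *Atp6v1g1*, was at 8.13 to 11.02 CPM in *Mtmr2* KO and 3.97 to 7.46 CPM in niacin-treated libraries, a log2 fold change of -0.61 ± 0.20 (adjusted p 0.129). In the list of kinases and phosphatases of the lysosomal phosphoinositides the smallest p was that of *Mtmr2* itself. Even *Mtmr2*, the gene deleted in these mice, was not called in any comparison by edgeR over the 12 libraries. As given above, a library labelled *Mtmr2* KO had *Mtmr2* inside the WT control range. The lack of a call in that fit is therefore no evidence that a gene did not change. In the fit of niacin-treated *Mtmr2* KO and WT control alone, 25 of the 114 were called higher and 32 lower, beside 16.3% and 17.6% of all genes, and the median log2 fold change was 0.0055.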

How the data were processed

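Poly(A)-selected RNA of 1 sciatic nerve per mouse was sequenced as paired reads. Per the labels and the methods of the study, the authors mapped reads to GRCm38 with STAR (CASAVA 1.9 is also named) and deposited raw read counts per Ensembl gene, without normalization; the STAR version, counting program, annotation release and strand setting were not given in the sources used. Symbols came from a deposited table of the authors' own DESeq2 comparison; those tables also hold log2 fold changes, test statistics and p-values, which were not used.

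Genes were tested with edgeR 4.0.16 in R 4.3.3 (filterByExpr, TMM scaling, 1 quasi-likelihood model of all 12 libraries, no covariates, two-sided, Benjamini-Hochberg over 17257 genes, called at an adjusted p under 0.05). SE is the log2 fold change divided by the square root of F. CPM uses TMM factors, and CPM per kb divides by merged exons of GENCODE M21. Single members were also compared by an exact permutation test of CPM over the 70 ways of dividing 8 libraries. Alternatives used DESeq2 1.42.0, limma 3.58.1, other scaling and filters, the 2 groups alone, Xist as a covariate and each library left out. Added after seeing the data were both 4502 and 4503 left out, and offsets for GC content and length (splines with 5 degrees of freedom), with 3 groups and with 2. The fits were also run on simulated counts, with and without a GC effect in the niacin-treated libraries. Those counts held no library that stood apart as 4502 does, and nothing above rests on them. Promoters came from RefSeq on GRCm38.p6.

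The members and lists were chosen with earlier results of these data known. Named with values in every library are members called in any comparison, the 3 with the smallest p in each, Tfeb, Tfe3, Mcoln1, Tpcn1, Tpcn2 and Mtmr2; of each other list, called genes or the 1 with the smallest p.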

Additional observations from a re-analysis of the deposited data

Results flagged for a closer look

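The distribution of each member over the 4 libraries of each group was checked for a library far from the other 3, in 93 groups, of which 6 were flagged because the gap to the nearest other library exceeded the 95% critical share of the range in the Dixon test. Chance flags about 1 in 20 groups. *Atp6v0b* was 37.9 CPM in niacin-treated *Mtmr2* KO 4505, against 47.2 to 48.1 CPM in the other 3 libraries of that group. *Atp6v0e* was 175 CPM in *Mtmr2* KO 4502, against 85.7 to 99.9 CPM in the other 3 libraries of that group. *Atp6ap2* was 60.8 CPM in *Mtmr2* KO 4503, against 77.5 to 80.6 CPM in the other 3 libraries of that group. *Lamp1* was 673 CPM in WT control 4498, against 765 to 780.3 CPM in the other 3 libraries of that group. *Lamp2* was 576 CPM in *Mtmr2* KO 4502, against 270.1 to 281 CPM in the other 3 libraries of that group. *Ctsz* was 134 CPM in WT control 4498, against 147 to 149.9 CPM in the other 3 libraries of that group. The flags fell on *Mtmr2* KO 4502 for 2 members, WT control 4498 for 2, and *Mtmr2* KO 4503 and niacin-treated 4505 for 1 each.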

How the results depend on the processing

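Each member had 153 or more counts in every library, and the groups held 4 mice each. Over the 12 libraries edgeR called 0 members in each of the 3 comparisons. Counts below are followed by the share of all genes called in the same fit. In niacin-treated *Mtmr2* KO against WT control, 19 were called with only the 2 groups by edgeR (33.9%) and 19 by DESeq2 (33.9%), 20 by limma-voom with sample quality weights (42.4%), 3 by DESeq2 over 12 libraries (7.38%), 2 with no filter except 1 count in total (0.918%), 18 without both *Mtmr2* KO 4502 and 4503 (29.6%), and 10 with GC content and length offsets and only the 2 groups (16.1%). Leaving out each library gave counts of 0 to 15, the latter without 4502 (21.6%). In niacin-treated against untreated *Mtmr2* KO, limma-voom called 9 (11.6%), DESeq2 over 12 libraries 1 (5.88%) and the fit without both 4502 and 4503 10 (12.5%), and leaving out each library gave 0 to 11, the latter without 4502 (23.6%). In *Mtmr2* KO against WT control leaving out each library gave 0 to 1, the latter without 4501 (2.6%). The median log2 fold change there was -0.062 with no filter, and the median level per length was 32.8 CPM per kb with the longest transcript in place of 23.1 with merged exons.

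Signs turned for log2 fold changes near 0. In *Mtmr2* KO against WT control, *Mcoln1* was -0.0084 by limma-voom and -0.037 with no filter, and -0.21 to 0.21 with each library left out. Without both 4502 and 4503, *Tfeb* was 0.13 and *Tfe3* 0.039, and *Tfeb* was -0.39 to 0.024 with each library left out. In niacin-treated against untreated *Mtmr2* KO, *Tpcn1* was -0.27 without both and -0.080 to 0.38 with each left out. In niacin-treated *Mtmr2* KO against WT control, *Atp6v1b2* was -0.023 by limma-voom and -0.035 with no filter, and *Atp6ap2* -0.14 and -0.15 with GC content and length offsets in 3 and in 2 groups. With each library left out, *Atp6v1b2* was -0.061 to 0.085, *Atp6ap1* -0.0052 to 0.13 and *Tpcn2* -0.024 to 0.28. The cause of these changes was not tested. Of 48 fold changes examined under the alternatives, 938 values kept their direction and their side of the threshold, 126 passed it newly, 20 lost it (all for *Acp5*) and 20 turned. With offsets over 3 groups no member was called. No paired analysis was possible because the groups share no replicate numbers.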
